A study of Homo sapiens with 6 samples.

Results

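The 10 genes described here belong to the Notch pathway: the receptors NOTCH1, NOTCH2 and NOTCH3, the ligands JAG1, JAG2, DLL1 and DLL4, and the transcription factors HES1, HES6 and ATOH1. They were measured by 29 probe sets, taken as those whose platform annotation gave exactly 1 gene symbol, equal to one of the 10. The whole table held 49395 probe sets, of which 44988 outside the array controls had 1 symbol and stood for 18132 genes. All 10 genes were measured, by 1 to 6 probe sets each, and none was dropped by a filter. Total RNA of 6 samples labelled TPC-1, a human papillary thyroid carcinoma line, was measured on Affymetrix arrays, each sample on its own array. According to the labels, 3 samples carried a lentivirus expressing an shRNA against FAM60A (genotype label FAM60A1 knockdown) and 3 carried a lentivirus expressing a control shRNA. The current symbol of FAM60A is SINHCAF, and its protein belongs to the SIN3-HDAC co-repressor complex. How many shRNAs or clones stood behind a group, and whether replicates were separate cultures, is not given in the sources used here, so the p-values cover only how these samples varied, which may be technical variation.

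Notch receptors are single-pass membrane proteins that are activated by Jagged or Delta-like ligands on a neighbouring cell. Ligand binding exposes the receptor to ADAM proteases and then to gamma-secretase, which frees the intracellular domain to enter the nucleus, bind the DNA-binding protein RBPJ and turn on targets such as the HES repressors. In the intestine HES1 represses ATOH1, the factor that commits progenitors to secretory fates, so that Notch activity favours absorptive cells. In thyroid carcinoma, Notch signalling has been studied for its bearing on differentiation and growth.

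A few facts of the whole series bear on every value below. SINHCAF, the gene that the shRNA names, had log2 values of 0.63, 0.57 and 0.60 in the arrays labelled FAM60A shRNA, against -0.58, -0.66 and -0.68 in the arrays labelled control shRNA. It was thus higher, not lower, in the arrays labelled FAM60A shRNA, with a log2 difference of 1.24 (SE 0.038, limma, adjusted p = 1.08e-06; two-sided exact permutation p = 0.1, the smallest that 3 against 3 arrays allow). The groups are therefore named by their labels, and no direction below follows a measured loss of SINHCAF. The RNA extraction protocol names DLD1, a colorectal cancer line, where every sample label names TPC-1. Among 15 probe sets of 6 thyroid markers, 0 reached a level of 8 or more and 7 lay in the lowest level class. Of the thyroid marker genes 0 passed the test (limma), with 1 at an unadjusted p under 0.05. Among 16 probe sets of 7 colorectal markers, 4 reached a level of 8 or more and 6 lay in the lowest level class. Those of 8 or more were of CDX2, CDH17 and KRT20, and all were higher with the FAM60A label. The other 4 colorectal genes did not pass. The mean of the colorectal list lay between 0.23 and 0.25 in the arrays labelled FAM60A shRNA and between -0.25 and -0.22 in the arrays labelled control shRNA, and its part in the Notch results was not tested. Arrays of the same group differed by 0.12 to 0.14 (root mean square, log2) and arrays of different groups by 0.36 to 0.37, so no array stood apart from its group.

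Values are log2 expression after subtraction of a probe set's median across arrays, so they show differences between arrays and not how strongly a gene was expressed. A gene's value is the mean of its probe sets. A coarse level class, 2 to 4, 4 to 8 or 8 and more on the log2 scale before centring, was read from the rounding step of the deposited numbers. The lowest class held 16 of 17 control tags that have no target in human RNA. Differences are the mean with the FAM60A label minus the mean with the control label, and a gene passed at an adjusted p under 0.05 (limma, Benjamini-Hochberg over all genes).

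In the arrays labelled FAM60A shRNA the receptor NOTCH1, the ligands JAG1, JAG2 and DLL4 and the target HES1 rose, and the ligand DLL1 fell. NOTCH2 and HES6 fell by smaller amounts, and NOTCH3 and ATOH1 did not pass. In RNA from whole cultures, fewer cells expressing a gene and less RNA per cell cannot be told apart. In all, 8 of the 10 genes passed, 5 upward and 3 downward, where 44.9% of all genes passed, 19.8% higher and 25.0% lower. No array of a group crossed into the other in 8 of the 10, against 53.2% of all genes. JAG1 and JAG2 passed with a difference of at least 0.5, as did 9.59% of all genes. The median log2 difference of the 10 was 0.16 and their median absolute difference 0.32, beside -0.012 and 0.12 over all genes. By size of the log2 difference the order was JAG2 (0.56), JAG1 (0.55), NOTCH1 (0.48), DLL4 (0.38), HES1 (0.35), NOTCH3 (-0.037), ATOH1 (-0.082), HES6 (-0.12), NOTCH2 (-0.15) and DLL1 (-0.28). The 95% confidence intervals of neighbours in this order overlapped everywhere except between HES1 (0.22 to 0.48) and NOTCH3 (-0.19 to 0.12). The plot of the gene values by array shows the separation of the groups gene by gene.

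**Figure D1:**
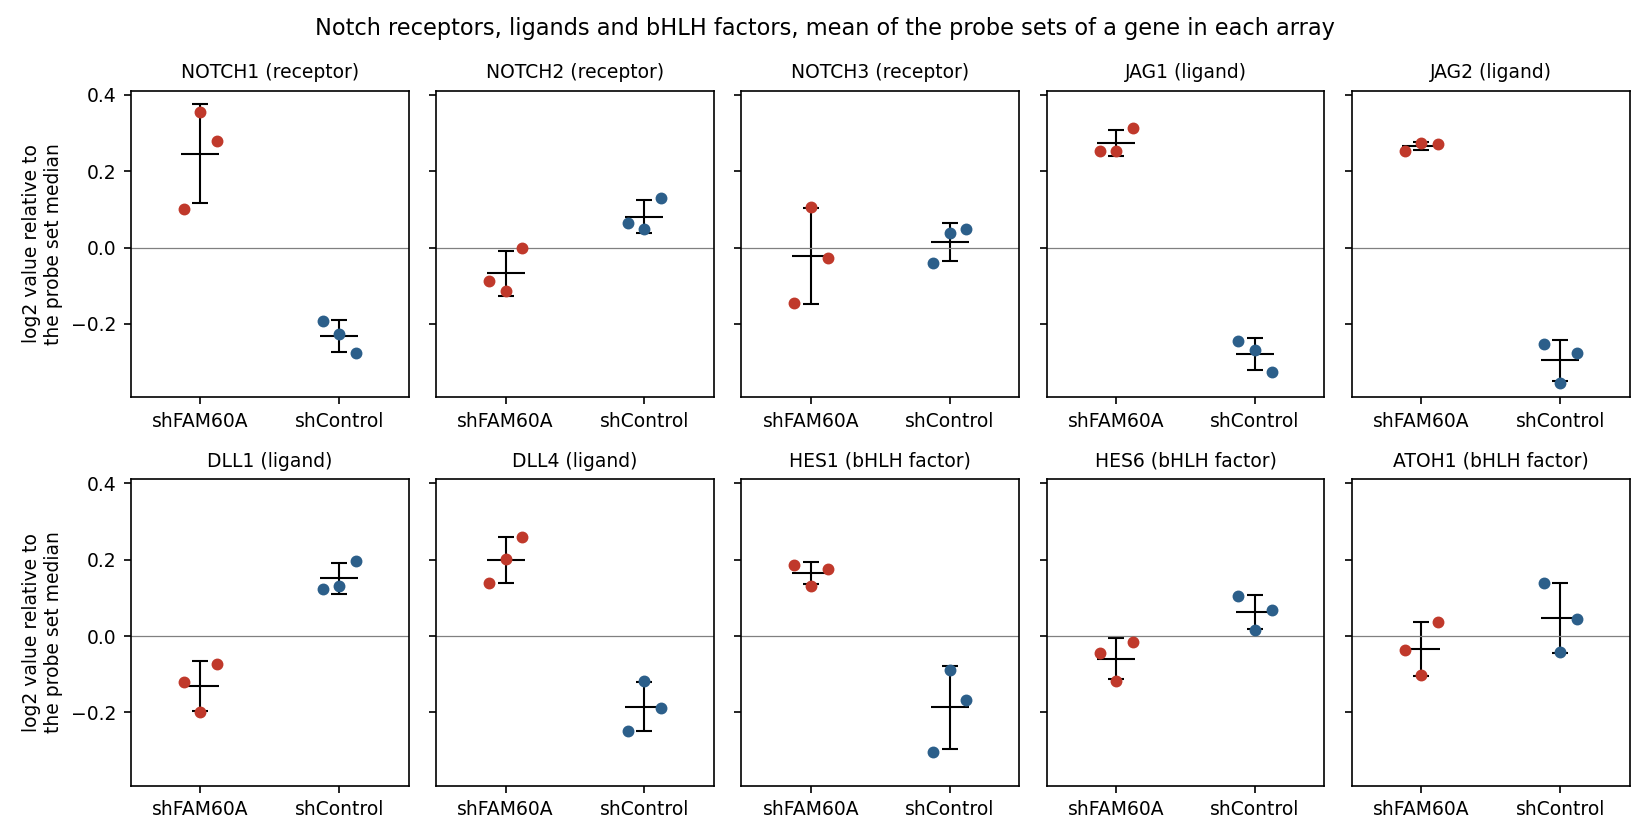
Log2 value relative to the probe set median (mean of a gene's probe sets, vertical axis) of the 10 genes in the 3 arrays labelled FAM60A shRNA (red, left) and the 3 labelled control shRNA (blue, right). Points are arrays, horizontal bars are group means and error bars are SD. The groups separate in 8 genes and overlap in NOTCH3 and ATOH1, and JAG2 holds all arrays labelled FAM60A shRNA at 0.25 to 0.27.

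The receptors did not move alike. NOTCH1 rose, NOTCH2 fell slightly and NOTCH3, the receptor best known from vascular smooth muscle, showed no difference beyond its spread. NOTCH1 had gene values of 0.10, 0.35 and 0.28 in the arrays labelled FAM60A shRNA and -0.19, -0.23 and -0.27 in the arrays labelled control shRNA. Its lowest array labelled FAM60A shRNA lay above all controls, and its SD was 0.129 in the arrays labelled FAM60A shRNA and 0.042 in the arrays labelled control shRNA (n = 3 each). The log2 difference of 0.48 (SE 0.065) corresponds to a 1.39-fold higher signal (adjusted p = 7.40e-04).

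That mean hides a split between probe sets. Probe set 11718260_at of NOTCH1, annotated with the RefSeq mRNA, stood at 0.70, 0.64 and 0.60 in the arrays labelled FAM60A shRNA against -0.60, -0.65 and -0.63 in the arrays labelled control shRNA, a log2 difference of 1.27 (SE 0.043, 2.42-fold, adjusted p over all probe sets = 3.47e-06). The other 2 probe sets overlapped between groups and did not pass, at -0.013 (95% confidence interval -0.31 to 0.29) and 0.17 (-0.05 to 0.39). All 3 lay in the level class of 4 to 8. The rise of NOTCH1 thus rested on 1 of 3 probe sets. With the median of the probe sets in place of the mean the log2 difference was 0.21 and did not pass (adjusted p = 0.093), and with the probe set of largest variance it was 1.27.

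NOTCH2 had -0.087, -0.11 and -0.00062 in the arrays labelled FAM60A shRNA and 0.066, 0.048 and 0.13 in the arrays labelled control shRNA. The groups did not overlap, though the gap between the nearest arrays was small, and the log2 difference was -0.15 (SE 0.042, adjusted p = 0.0245). Its 5 probe sets all pointed down, from -0.20 to -0.099, and 2 of them passed. The call was lost without replicate 1 (-0.14, adjusted p = 0.0722) or replicate 2 (-0.13, adjusted p = 0.0814) labelled FAM60A shRNA, without replicate 3 labelled control shRNA (-0.12, adjusted p = 0.0816), and with the probe set of largest variance (-0.18, adjusted p = 0.118). NOTCH3 had -0.15, 0.11 and -0.026 in the arrays labelled FAM60A shRNA and -0.041, 0.039 and 0.048 in the arrays labelled control shRNA. Its arrays were interleaved, and the difference of -0.037 had a 95% confidence interval of -0.19 to 0.12 (adjusted p = 0.703).

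All 4 ligands passed, 3 higher and 1 lower. Both Jagged ligands rose, and of the Delta-like ligands DLL4 rose while DLL1 fell. The Jagged differences were almost the same by the mean of the probe sets. With the median of the probe sets JAG1 differed by 0.69 and JAG2 by 0.56. JAG2 was measured by a single probe set, with 0.25, 0.27 and 0.27 in the arrays labelled FAM60A shRNA and -0.25, -0.36 and -0.28 in the arrays labelled control shRNA. Its log2 difference was 0.56 (SE 0.037, 1.47-fold, adjusted p = 2.00e-05). JAG1, the Jagged ligand mutated in Alagille syndrome, had gene values of 0.25, 0.25 and 0.31 in the arrays labelled FAM60A shRNA and -0.24, -0.27 and -0.33 in the arrays labelled control shRNA, a difference of 0.55 (SE 0.036, 1.47-fold, adjusted p = 2.03e-05). For both genes the arrays of a group lay close together and the groups were far apart. Only 7.69% of all genes had a larger absolute difference than JAG2, and 7.90% a larger one than JAG1.

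The 6 probe sets of JAG1 were of 3 kinds. Of these, 4 rose, 11751993_a_at by 1.13 (SE 0.108), 11720825_s_at by 0.91 (SE 0.052), 11751994_s_at by 0.90 (SE 0.129) and 11720823_at by 0.67 (SE 0.061), all past the test over probe sets (adjusted p from 1.78e-05 to 0.00114). Among the 4, 11751993_a_at and 11751994_s_at were annotated with the same source sequence. Probe set 11720824_a_at, in the level class of 8 and more, did not pass at 0.036 (95% confidence interval -0.10 to 0.17). Probe set 11720826_s_at fell instead, with -0.10, -0.23 and -0.12 in the arrays labelled FAM60A shRNA and 0.28, 0.10 and 0.13 in the arrays labelled control shRNA, a difference of -0.32 (SE 0.063, adjusted p = 0.00504). Such opposed calls within a gene occurred in 3.72% of the 11734 genes measured more than once. The gene difference was 1.13 with the probe set of largest variance, and JAG1 remained past the test under every alternative tried.

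DLL4, a Delta-like ligand of vessel sprouting and of intestinal crypts, had 0.14, 0.20 and 0.26 in the arrays labelled FAM60A shRNA and -0.25, -0.12 and -0.19 in the arrays labelled control shRNA. The groups were apart, its 2 probe sets rose by 0.52 and 0.25, and the gene difference was 0.38 (SE 0.048, 1.30-fold, adjusted p = 4.35e-04). Of 6 markers of endothelial cells, which express DLL4, 0 passed as gene means (limma) and 0 reached an unadjusted p under 0.05. Of their 17 probe sets 0 had a level of 8 or more. In VWF, with a gene difference of -0.014, 1 probe set passed lower (-0.32) and 1 higher (0.26). DLL1 had -0.12, -0.20 and -0.072 in the arrays labelled FAM60A shRNA and 0.12, 0.13 and 0.20 in the arrays labelled control shRNA. All arrays labelled FAM60A shRNA lay below all controls, and the difference was -0.28 (SE 0.043, adjusted p = 0.00129). This fall too was carried mainly by 1 of 3 probe sets, 11724938_at, annotated with the RefSeq mRNA, at -0.59 (SE 0.053, adjusted p = 1.26e-04). The others, at -0.20 and -0.057, did not pass. With that probe set alone, which has the largest variance, the gene difference was -0.59.

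**Figure D2:**
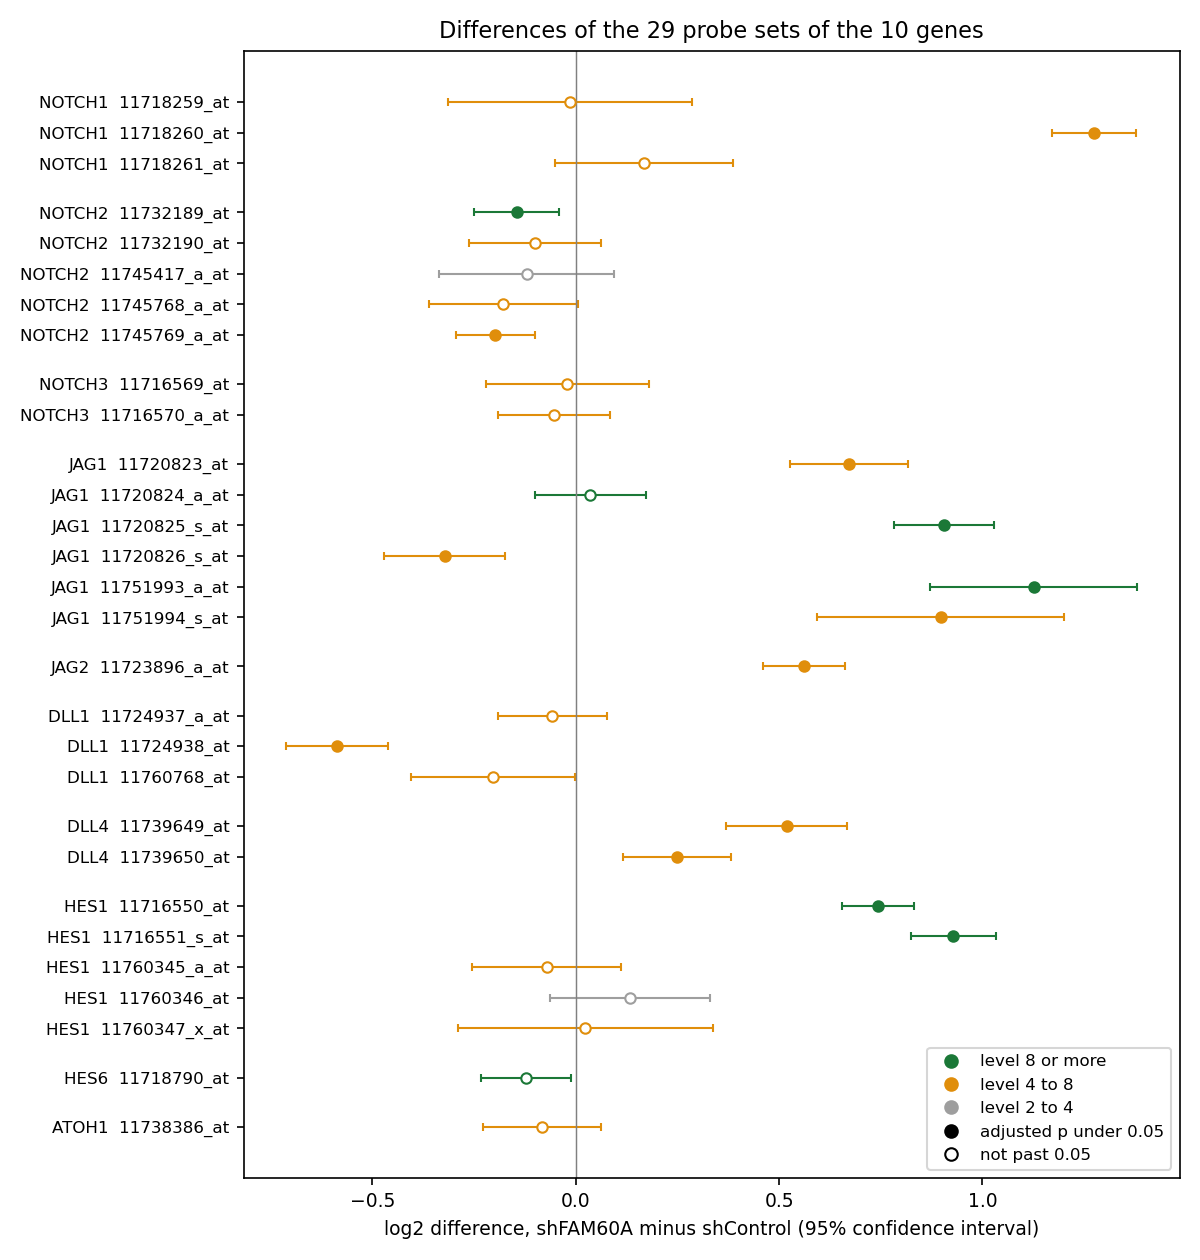
Log2 difference (FAM60A label minus control label) of each of the 29 probe sets (horizontal axis), with 95% confidence intervals (limma). Colour gives the level class and filled points passed at an adjusted p under 0.05 over all probe sets. NOTCH1, DLL1 and HES1 hold probe sets near 0 beside ones far from it, and JAG1 has probe sets on both sides of 0.

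Over the 29 probe sets of the 10 genes, 14 passed, 10 higher and 4 lower, where 41.4% of all probe sets passed, 18.4% higher and 23.0% lower. Groups were apart in 15 of the 29, against 50.8% of all probe sets. Of the 6 in the level class of 8 to 16, 5 passed (64.9% of all probe sets in that class), of the 20 in the class of 4 to 8, 9 passed (45.4%), and of the 2 in the lowest class, 0 passed (11.1%). The remaining probe set, that of HES6, had a rounding step pointing to 16 or more, which RMA does not give, and is counted here with the class of 8 and more. It did not pass, where 62.2% of probe sets with that step did. Of the 7 probe sets annotated with a RefSeq mRNA, 3 rose (those of NOTCH1, JAG2 and HES1), 1 fell (DLL1) and 3 did not pass (NOTCH2, NOTCH3 and HES6).

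Among the basic helix-loop-helix factors, HES1 rose, HES6 fell slightly and ATOH1 did not pass. HES1, the repressor that RBPJ and the Notch intracellular domain switch on, had gene values of 0.19, 0.13 and 0.18 in the arrays labelled FAM60A shRNA and -0.30, -0.089 and -0.17 in the arrays labelled control shRNA. The groups did not overlap, with an SD of 0.029 in the arrays labelled FAM60A shRNA and 0.109 in the arrays labelled control shRNA (n = 3 each). The mean difference was 0.35 (SE 0.056, 1.28-fold, adjusted p = 0.00162).

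The 2 HES1 probe sets in the level class of 8 and more gave a larger and tighter difference. Probe set 11716550_at, annotated with the RefSeq mRNA, stood at 0.35, 0.36 and 0.37 in the arrays labelled FAM60A shRNA against -0.41, -0.35 and -0.38 in the arrays labelled control shRNA, a difference of 0.74 (SE 0.037, 1.67-fold, adjusted p = 1.12e-05). Probe set 11716551_s_at stood at 0.48, 0.48 and 0.42 in the arrays labelled FAM60A shRNA against -0.48, -0.51 and -0.42 in the arrays labelled control shRNA, a difference of 0.93 (SE 0.044, 1.90-fold, adjusted p = 9.03e-06). The other 3, 11760345_a_at (-0.071), 11760346_at (0.13) and 11760347_x_at (0.024), were annotated with a single shared source sequence, lay in lower level classes, overlapped between groups and did not pass. Their 95% confidence intervals reached at most 0.34, below the lower bound of 0.65 of 11716550_at. With only probe sets of a level of 8 or more, an alternative chosen after seeing the data, HES1 differed by 0.84 (adjusted p = 1.75e-07). With the median over its 5 probe sets it differed by 0.19 and did not pass (adjusted p = 0.133).

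**Figure D3:**
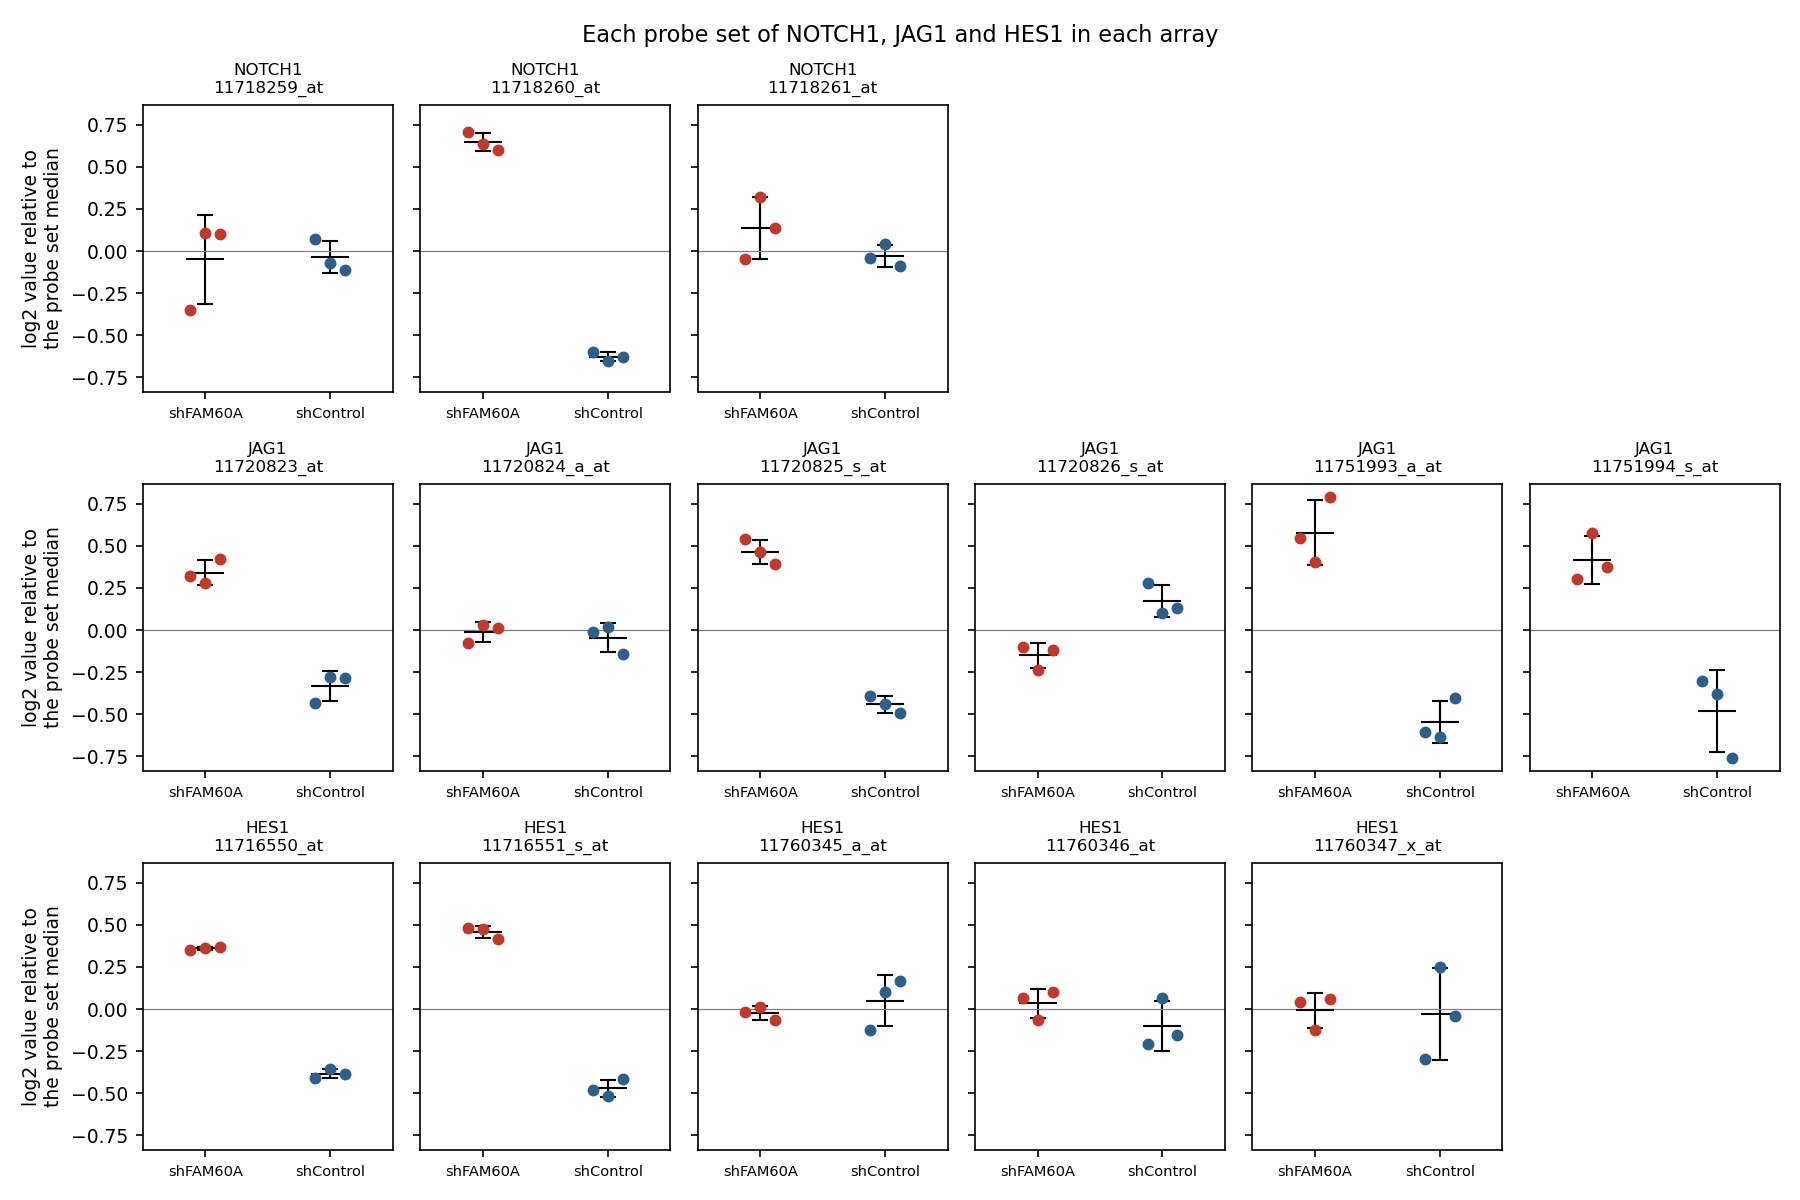
Log2 value relative to the probe set median (vertical axis) of every probe set of NOTCH1, JAG1 and HES1 in the 3 arrays labelled FAM60A shRNA (red, left) and the 3 labelled control shRNA (blue, right), with group means and SD. The groups are wide apart in 1 of 3 probe sets of NOTCH1 and 2 of 5 of HES1, and JAG1 has 4 probe sets up and 1 down.

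HES6, which counteracts HES1 and promotes neuronal differentiation, had -0.045, -0.12 and -0.015 in its single probe set in the arrays labelled FAM60A shRNA and 0.10, 0.015 and 0.068 in the arrays labelled control shRNA. The nearest arrays of the groups were 0.015 on either side of the median, and the difference was -0.12 (SE 0.041, adjusted p = 0.0471 over genes). Its call was the weakest of the 8: with p-values adjusted over probe sets it did not pass (adjusted p = 0.0765), nor with the other probe set summaries by variance or median (adjusted p = 0.0877 and 0.0506), nor after another quantile normalization (-0.10, adjusted p = 0.0845) or cyclic loess (-0.094, adjusted p = 0.112), nor when replicate 1 or 2 labelled FAM60A shRNA or replicate 1 or 3 labelled control shRNA was left out (-0.13 to -0.092). ATOH1 had -0.038, -0.10 and 0.038 in the arrays labelled FAM60A shRNA and 0.14, -0.042 and 0.045 in the arrays labelled control shRNA. Its arrays overlapped, and the difference of -0.082 had a 95% confidence interval of -0.22 to 0.053 (adjusted p = 0.306). This probe set lay in the level class of 4 to 8.

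Known Notch targets carry RBPJ sites close to their start, and the HES1 promoter is the textbook case. RefSeq promoter windows (GRCh38.p14, 250 bases before to 50 after the start of a gene) were available for 9 of the 10 genes and were searched for the RBPJ core TGGGAA on both strands. It occurred in 1 of the 9, HES1, with 2 copies, 84 and 70 bases before the start, where 24.3% of 27305 promoter windows held at least 1 copy and 3.8% at least 2. Of the other Notch pathway genes listed below, 11 of 38 windows held it. Among them HES4 had a copy 76 bases before the start and HES5 had copies 80 and 224 bases before it, the farther on the opposite strand. HEY2 and HEYL also held 2 copies each, and neither passed the expression test. HES7, with the largest difference of the family, had 0 copies in its window. The windows of HES1, HES4, HES5 and HES7 are printed because their expression values stand side by side below, with capitals marking TGGGAA or, on the opposite strand, TTCCCA. They lie at chr3:194135898-194136197 (plus strand, HES1), chr1:1000048-1000347 (minus strand, HES4), chr1:2530214-2530513 (minus strand, HES5) and chr17:8124057-8124356 (minus strand, HES7).
HES1: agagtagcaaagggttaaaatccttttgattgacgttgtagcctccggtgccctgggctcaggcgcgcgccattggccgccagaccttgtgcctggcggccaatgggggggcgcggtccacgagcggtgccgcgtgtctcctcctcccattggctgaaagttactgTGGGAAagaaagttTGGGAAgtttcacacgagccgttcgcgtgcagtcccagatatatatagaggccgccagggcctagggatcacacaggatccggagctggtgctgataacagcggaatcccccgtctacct
HES4: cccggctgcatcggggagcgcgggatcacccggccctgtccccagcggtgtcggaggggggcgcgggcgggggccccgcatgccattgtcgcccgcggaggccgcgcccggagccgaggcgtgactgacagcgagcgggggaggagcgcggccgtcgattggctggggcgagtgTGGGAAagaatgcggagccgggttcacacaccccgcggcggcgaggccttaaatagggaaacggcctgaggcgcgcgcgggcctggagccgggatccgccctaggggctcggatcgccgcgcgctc
HES5: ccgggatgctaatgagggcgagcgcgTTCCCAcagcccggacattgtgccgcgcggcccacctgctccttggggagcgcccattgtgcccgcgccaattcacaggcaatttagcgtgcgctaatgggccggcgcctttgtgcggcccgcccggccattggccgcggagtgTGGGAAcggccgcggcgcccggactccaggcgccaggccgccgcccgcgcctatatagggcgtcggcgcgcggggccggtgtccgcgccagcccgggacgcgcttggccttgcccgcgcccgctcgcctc
HES7: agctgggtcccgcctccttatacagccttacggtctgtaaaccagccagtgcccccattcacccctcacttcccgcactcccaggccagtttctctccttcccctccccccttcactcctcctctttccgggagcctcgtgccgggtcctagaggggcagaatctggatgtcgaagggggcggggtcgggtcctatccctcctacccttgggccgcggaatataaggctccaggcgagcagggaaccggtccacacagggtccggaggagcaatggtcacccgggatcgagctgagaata
A match describes the letters of a window and is not a bound site. The HES repressors themselves bind N boxes, CACNAG, which 38.0% of all windows and 6 of the 9 windows here held on either strand. The HES1 window had 4 copies, those of NOTCH1 and ATOH1 had 2 each, and those of NOTCH2, NOTCH3 and DLL4 had 1 each. The 2 copies of NOTCH1 lay on opposite strands and overlapped each other, so they mark a single stretch. In the HES1 window no N box overlapped a TGGGAA.

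The rest of the HES and HEY family, which includes known Notch targets, was mixed. Of 7 measured, 4 rose (HES7, HES2, HES4 and HES5), 1 fell (HEY1) and 2 did not pass (HEY2 at -0.082 and HEYL at -0.0068). Over all genes 19.8% passed higher and 25.0% lower. HES7, the oscillating repressor of the segmentation clock, had 0.66, 0.82 and 0.70 in the arrays labelled FAM60A shRNA and -0.66, -0.68 and -0.76 in the arrays labelled control shRNA, a difference of 1.42 (SE 0.052, 2.68-fold, adjusted p = 2.04e-06) from a single probe set of the level class of 4 to 8. HES2 differed by 0.42 (SE 0.069), and its probe sets by 0.98, 0.25 and 0.034, the last not past the test. HES4 differed by 0.32 (SE 0.034), with a level of 8 or more. HES5, a target of Notch in neural progenitors, differed by 0.26 (SE 0.055) and HEY1 by -0.18 (SE 0.032), and all their probe sets lay in the lowest level class, as did those of HEY2. NRARP, a feedback inhibitor that Notch induces, had 0.34, 0.26 and 0.52 in the arrays labelled FAM60A shRNA and -0.26, -0.26 and -0.18 in the arrays labelled control shRNA, a difference of 0.61 (SE 0.067, 1.52-fold, adjusted p = 2.37e-04) that both its probe sets showed. DTX1, another feedback target, differed by -0.078 and did not pass.

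Further pathway genes were listed to the number of 47, and of the 44 on the arrays 18 rose, 12 fell and 14 did not pass, beside 44.9% of all genes passing. Their median difference was 0.011 and their median absolute difference 0.26. The other receptor and the other ligand, NOTCH4 (-0.082) and DLL3 (-0.037), did not pass. The same 30 genes passed in the same direction after another quantile normalization and after cyclic loess.

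**Figure D4:**
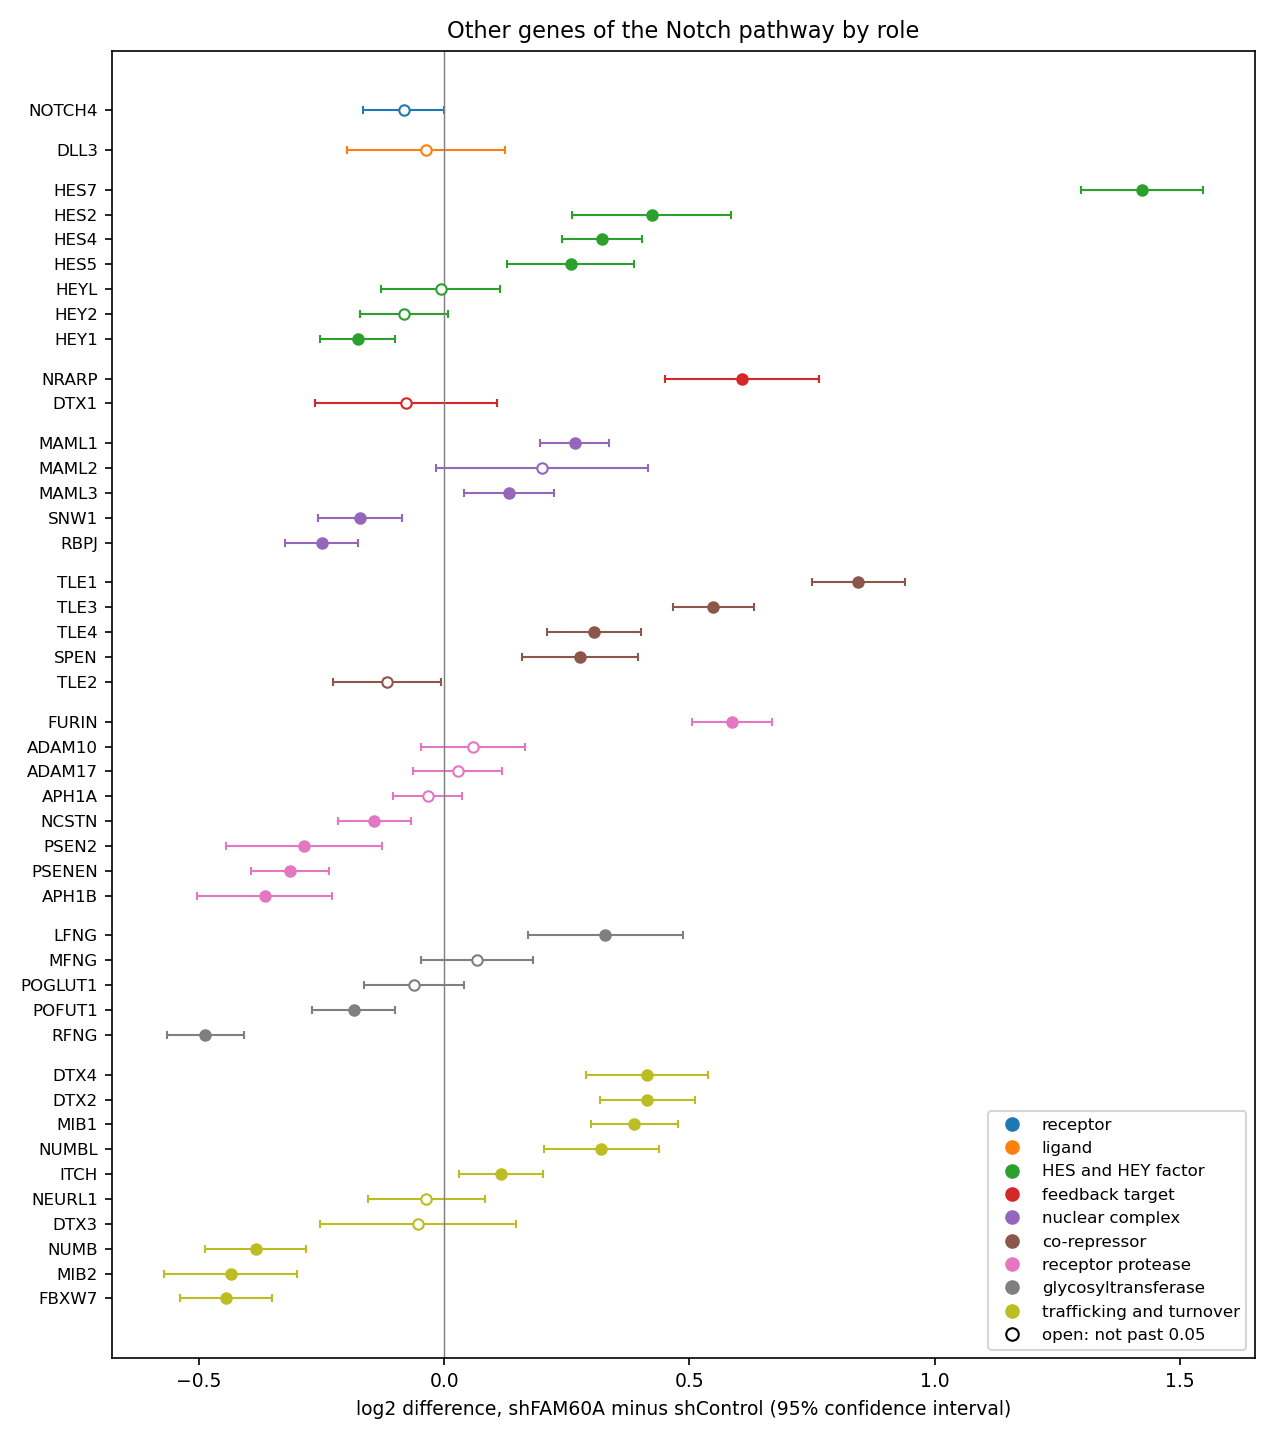
Log2 difference (FAM60A label minus control label) of 44 other Notch pathway genes grouped by role (horizontal axis), with 95% confidence intervals (limma). Open points did not pass at an adjusted p under 0.05. HES7 lies farthest to the right at 1.42, and among the gamma-secretase subunits APH1B, PSENEN, PSEN2 and NCSTN lie left of 0.

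In the nucleus the DNA-binding protein RBPJ fell by 0.25 (SE 0.031, adjusted p = 4.66e-04), with 4 of its 6 probe sets lower past the test and 0 higher. Its values were -0.12, -0.15 and -0.12 in the arrays labelled FAM60A shRNA against 0.12, 0.14 and 0.086 in the arrays labelled control shRNA, a narrow spread within each group. The coactivators MAML1 (0.27) and MAML3 (0.13) rose as gene means, but of their probe sets 1 of 2 passed for MAML1 (0.48, the other being 0.057) and 0 of 4 for MAML3. MAML2 (0.20) did not pass, and SNW1 (-0.17), a splicing factor that joins the complex, fell. Of 5 co-repressors measured 4 rose: TLE1 (0.84, SE 0.040), TLE3 (0.55, SE 0.035) and TLE4 (0.31, SE 0.040), which HES proteins recruit, and SPEN (0.28, SE 0.050), which RBPJ recruits. TLE2 (-0.12) did not pass, and of all genes 19.8% passed higher and 25.0% lower. TLE1 was 1.80-fold higher, with 0.42, 0.40 and 0.38 in the arrays labelled FAM60A shRNA against -0.38, -0.49 and -0.47 in the arrays labelled control shRNA.

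Of 8 enzymes and subunits that cut the receptor, 1 rose, 4 fell and 3 did not pass, beside 19.8% of all genes higher and 25.0% lower. FURIN, the convertase that cleaves the receptor on its way to the membrane, rose by 0.59 in its single probe set (SE 0.034, adjusted p = 1.20e-05). The sheddases ADAM10 (0.059) and ADAM17 (0.028) did not pass, ADAM17 with 2 probe sets higher and 2 lower. Of the 5 gamma-secretase subunits measured 4 fell: APH1B (-0.37, SE 0.058), PSENEN (-0.31, SE 0.034), the catalytic subunit PSEN2 (-0.29, SE 0.068) and NCSTN (-0.14, SE 0.031). Lower past the test were 5 of 6 probe sets of APH1B, 3 of 6 of PSEN2 and 2 of 3 of NCSTN. APH1A (-0.034) did not pass, with 1 of its 7 probe sets higher and 4 lower. The glycosyltransferases that modify the receptor's EGF repeats went both ways. The fringe enzyme LFNG rose by 0.33 (SE 0.067), with 1 of its 2 probe sets at 0.63 and the other at 0.026 and not past the test, and its relative RFNG fell by 0.49 (SE 0.034, adjusted p = 2.54e-05), MFNG (0.066) did not pass, and POFUT1, which adds the fucose that fringe extends, fell by 0.18 (SE 0.036), with 1 probe set higher and 2 lower.

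Of 10 genes of receptor and ligand trafficking and turnover, 5 rose, 3 fell and 2 did not pass. Of all genes 19.8% passed higher and 25.0% lower. MIB1 (0.39, SE 0.037), the ubiquitin ligase that drives ligand endocytosis, rose and its relative MIB2 (-0.44, SE 0.057) fell. Of the 5 probe sets of MIB1 3 passed, and the others were at 0.034 and 0.094. The Notch inhibitor NUMB (-0.38, SE 0.043) fell and NUMBL (0.32, SE 0.050) rose, NUMBL with 4 of its 5 probe sets past the test. FBXW7, the ubiquitin ligase that targets the Notch intracellular domain for degradation, fell by 0.44 (SE 0.040, adjusted p = 8.77e-05), with all 3 probe sets lower. The Deltex family members DTX2 (0.41, SE 0.041) and DTX4 (0.41, SE 0.053) rose, and DTX3 (-0.053) did not pass. ITCH (0.12, SE 0.036) rose as a gene mean, with 1 of its 4 probe sets past the test, and NEURL1 (-0.036) did not pass.

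Because the extraction protocol names a colorectal line, a list of intestinal genes was also read. It was made up of factors and products of the secretory lineage, in which ATOH1 acts, and of stem or progenitor genes. No marker of absorptive cells was in it. Among the 16 on the arrays there were 7 that rose and 0 that fell, and 9 did not pass, beside 44.9% of all genes passing, 19.8% higher and 25.0% lower, with 8 at an unadjusted p under 0.05 (limma). Of the secretory factors 1 of 5 rose, of the secretory products 4 of 8, and of the stem or progenitor genes 2 of 3. Those that rose were the stem and progenitor factors ASCL2 (2.20, SE 0.050) and SOX9 (1.16, SE 0.032), the secretory cell disulfide isomerase AGR2 (1.32, SE 0.039), the goblet cell factor FOXA3 (0.84, SE 0.086), the goblet products SPINK4 (0.36, SE 0.062) and REG4 (0.22, SE 0.046), and the mucin MUC2 (0.18, SE 0.049), which, like the genes of the next sentence, was named after its value was seen. The secretory factors SPDEF (0.023), GFI1 (-0.097), NEUROG3 (0.040) and INSM1 (-0.0076) did not pass, as ATOH1 did not. The secretory products CHGA (0.043), CHGB (0.075), FCGBP (0.047) and CLCA1 (-0.097) and the stem gene OLFM4 (0.14) did not pass either. They too were named after their values were seen. Of the 30 probe sets of the list 15 lay in the lowest level class, including those of MUC2, NEUROG3 and INSM1. REG4 had 1 of 3 probe sets past the test (0.47), and the others (0.17 and 0.020) lay in the lowest class. ASCL2 was measured by 1 probe set, whose level class could not be resolved. The colorectal marker means given above separate the groups in the same direction, and their part in these differences was not tested.

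Many genes followed the same course as the Notch genes across the 6 arrays. By root mean square difference of the log2 values over the 6 arrays, the genes closest to NOTCH1 were ENTPD8 (0.036), CIPC (0.043) and ARTN (0.045). Closest to JAG2 were NAT10 (0.014), EFNB2 (0.019) and TXNRD1 (0.022), and closest to HES1 were MB21D2 (0.028), ACY3 (0.034) and NPTX2 (0.035). A difference under 0.1 from NOTCH1 was seen in 466 other genes, from JAG2 in 779 and from HES1 in 1209, so such likeness was common in these arrays, which share 1 contrast.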

How the data were processed

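The authors deposited log2 expression values that RMA produced, as the submitters' processing notes name it. For the program, its version and the log base nothing is stated in the labels, and base 2 is what RMA gives. The deposited values had also been centred, since every probe set's median over the 6 arrays was 0 to within 5e-07. Names came from the platform annotation: 44994 had 1 symbol, 1832 had several and 2569 had none. The 102 array controls were not tested.

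Probe sets were averaged by gene and tested in limma 3.58.1 (lmFit, eBayes; R 4.3.3), 3 against 3 arrays, with Benjamini-Hochberg adjustment over 18132 genes or 44988 probe sets. Level classes came from the single-precision rounding step and were, like the fit, tested on simulated data. The number of arrays limits the precision. Members and lists were chosen with earlier results of these data known. Text names all 10 genes. Listed pathway genes are named past the test with an absolute log2 difference of at least 0.3, otherwise up to 4 per role by p. Also named are the 6 genes of smallest p in the intestinal secretory and stem list, and the 3 genes nearest to each leading member. Further pathway genes that complete a role were named after their values were seen. Alternatives were 2 other scalings, other probe set summaries and filters, a trended robust fit, a replicate block and leaving out each array. Of the listed genes, 6 were not analysed here. Promoter windows are RefSeq's, build GRCh38.p14.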

Additional observations from a re-analysis of the deposited data

How the results depend on the processing

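With the median over a gene's probe sets 5 of the 10 Notch genes passed instead of 8, NOTCH1, HES1 and HES6 being lost. In NOTCH1 1 of 3 probe sets passed and in HES1 2 of 5, and the median took a value of the others in every array. HES6, with 1 probe set, kept its difference of -0.12, and only its adjusted p moved (limma, 0.0471 to 0.0506). With only probe sets of a level of 8 or more, an alternative chosen after seeing the data, 4962 of 6610 genes passed, against 8136 of 18132. The share passing was thus larger over all genes. Of the Notch genes 4 of 4 passed, against 8 of 10. Of the other pathway genes 14 of 15 passed, against 30 of 44, and of the intestinal list 2 of 2, against 7 of 16. Leaving out each array in turn gave 7365 to 7700 genes, 6 to 8 Notch genes, 13 to 16 of their probe sets, 28 to 30 other pathway genes and 6 to 8 of the intestinal list. Without replicate 1 labelled FAM60A shRNA, NOTCH3 changed sign to 0.025 (adjusted p = 0.76), its range over the left-out arrays being -0.10 to 0.025. SINHCAF kept its sign and call throughout, from 1.12 to 1.31. JAG1, JAG2, DLL1 and DLL4 kept sign and call wherever they could be measured. Same-numbered arrays did not deviate together by the 0.1 required of every pair (correlations 0.161, 0.0593 and 0.078), although by these deviations each array labelled FAM60A shRNA correlated best with the control of its own number, a hint from the data and not the design, and with the replicate block 8 Notch genes and 8170 genes passed.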

Other observations

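In 3 of the 44 other pathway genes, named here after their values were seen, probe sets passed the test in opposite directions, which the gene mean conceals. Some of the 44 had a single probe set. Of all 11734 genes measured more than once 3.72% held such opposed calls, a share not matched for the number of probe sets. The 4 probe sets of ADAM17 differed by 0.45 and 0.24 and by -0.28 and -0.28, and its gene mean of 0.028 did not pass. Of the 7 probe sets of APH1A 1 rose (0.23) and 4 fell (-0.18 to -0.12). Of the 3 of POFUT1 1 rose (0.17) and 2 fell (-0.48 and -0.24).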
